A study of Mus musculus with 2 samples.

Results

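Genes that restrain cytokine receptor signaling were examined in CT26 cells with and without decitabine (DAC), the 8 genes of the SOCS family (Cish and Socs1 to Socs7) and the 2 SHP tyrosine phosphatase genes (Ptpn6 and Ptpn11). The genes were chosen by symbol, and all 10 were found by their Ensembl identifiers among the 24223 genes in each count table. CT26 is a mouse colorectal cancer line of BALB/c origin, and DAC is a cytosine analog that blocks maintenance of DNA methylation. 1 library came from cells given DAC at 1 μM on 3 occasions, 24 h apart, with collection 24 h after return to drug-free medium, and 1 library came from control cells handled in parallel without the drug. RNA was selected by its poly-A tail, and the tables held 35163420 counts for DAC and 34221886 counts for the control. With 1 library per group no difference has a replicate check, and every interval given here covers counting error only, since reads without molecular identifiers need not be independent molecules.

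Cytokines bind receptors that carry Janus kinases (JAK), which phosphorylate the receptor and then the STAT transcription factors. SOCS genes are themselves among the genes that STATs switch on, so the pathway makes its own brake. Each SOCS protein holds an SH2 domain, which grips phosphorylated tyrosines, and a SOCS box, which recruits elongins B and C with a cullin to form a ubiquitin ligase, and SOCS1 and SOCS3 also block JAK activity directly. SHP-1, encoded by Ptpn6, and SHP-2, encoded by Ptpn11, remove phosphate from tyrosines. SHP-1 is best known as an inhibitor in blood cells, while SHP-2 is made in most cells and also carries growth factor signals toward RAS and MAPK.

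Counts were scaled to CPM (counts per 1000000 counts) with TMM factors, and genes with at least 1 CPM in either library, 13545 in all, were taken as measured. All 10 genes were measured, and pairs of values are given with the control first. Scaling by library totals would add 0.19 to every log2 ratio. A gene was called higher when the DAC to control ratio of its CPM reached 2 with a 95% exact (Clopper-Pearson) counting interval above 1, and lower when the ratio was 0.5 or less with an interval below 1. Socs1 and Ptpn6 were called higher, and no member was called lower. Among all measured genes, 10.8% were called higher and 5.29% lower, so the 2 of 10 members stand beside a background of 10.8% and are read gene by gene. The median log2 ratio was 0.12 over the 10 members and -0.02 over all measured genes. The intervals of 6 members lay above 1 and those of 2 below 1, while 37.3% of all measured genes had an interval above 1 and 40.3% one below 1. In whole-culture RNA, a change in every cell and a change in a few cells cannot be told apart.

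**Figure D1:**
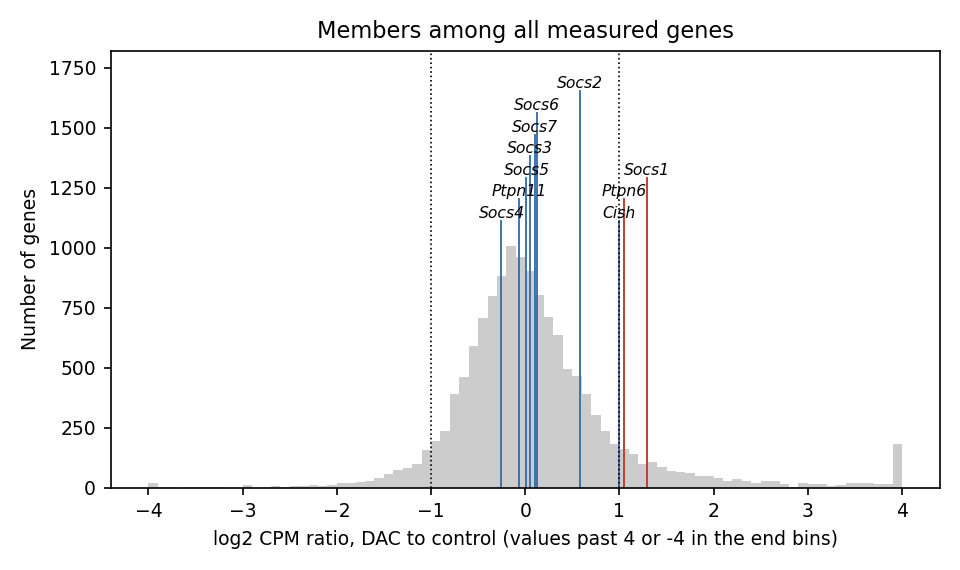
Number of measured genes (y axis) by log2 CPM ratio of DAC to control (gray bars, x axis), with each member marked by a line, red for the genes called higher and blue for the others. Dotted lines mark 2-fold differences. Socs1, Ptpn6 and Cish stand near or past the right dotted line at 1.29, 1.05 and 0.99, Socs2 stands at 0.58, and the other 6 lie between -0.25 and 0.12.

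Socs1, a strong inhibitor of interferon signaling, had 98 counts in the control and 282 counts in the DAC library. These are 3.06 and 7.505 CPM, a ratio of 2.45 (interval 1.94 to 3.12), which placed Socs1 at percentile 92.1 of the ratios of all measured genes. The gene lies on the minus strand of chromosome 16 of GRCm38 from 10782240 to 10785536, and none of the 50-base stretches of its longest transcript occurs in another annotated gene. Its share of all SOCS counts, which no scaling of the libraries can move, went from 0.974% (0.791 to 1.19) to 2.29% (2.04 to 2.57). Relative to the sum of the other 7 SOCS genes, Socs1 was 2.39-fold higher in the DAC library (1.89 to 3.04). The call held after centring on gene GC content, where the ratio was 2.04, and under every scaling tried.

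The 250 bases before the Socs1 start are printed because they hold the motif bound by interferon-activated factors, GAAANNGAAA, which was searched on both strands. The motif occurs at 2 places that overlap by 4 bases, as GAAAGAGAAA starting 83 bases before the start and as GAAACCGAAA starting 77 bases before it. The sequence is from RefSeq on GRCm38.p6, chr16:10785537-10785786, minus strand, and the capitals mark both motifs.
Socs1: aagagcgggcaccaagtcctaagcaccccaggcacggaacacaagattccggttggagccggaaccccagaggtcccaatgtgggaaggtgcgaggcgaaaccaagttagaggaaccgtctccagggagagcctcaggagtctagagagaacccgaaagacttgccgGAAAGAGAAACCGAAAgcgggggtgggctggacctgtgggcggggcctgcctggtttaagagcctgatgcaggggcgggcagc
Of 32851 promoter windows of 300 bases (250 before and 50 after a start), 3.44% hold this motif, and among the 6 members with a window in the table it was found in that of Socs1 alone. The STAT dimer motif TTCNNNGAA, present in 8.30% of windows, was found in the windows of Cish and Socs3. In Cish it occurs as TTCCTGGAA and TTCTTGGAA, starting at bases 1 and 12 counted from the RefSeq start. In Socs3 it occurs as TTCTTAGAA, starting 154 bases before the RefSeq start. For Socs3 and Socs4, the 50 bases after the RefSeq start occur in no GENCODE transcript of the gene. Positions and CG counts of every window hold for the RefSeq start only. The variant TTCNNNNGAA, present in 6.95% of windows, was found in none of the 6. These matches are letters in a window, and binding was not measured.

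Cish and Socs2 are the members that STAT5 induces after growth hormone and related cytokines, and both had more counts in the DAC library. Cish had 30 counts in the control and 70 counts in the DAC library, 0.937 and 1.86 CPM, so that it passed the CPM minimum through the DAC library alone. Its ratio of 1.99 (1.28 to 3.16) fell just short of 2, whereas Ptpn6 at 2.07 was just past it. Cish is thus the member nearest to the limit, and it passes 2-fold by library totals (2.27), by DESeq2 size factors and by upper-quartile factors. With counts divided by 3, which allows for reads that are not independent, the Cish interval ran from 0.912 to 4.67. Of its 50-base stretches, 13.2% are shared, mainly with Gm17041 and Gm17040, which overlap Cish on the opposite strand and were not analysed here. The sources used here do not say whether the counting used strand, so reads of these overlapping genes cannot be told apart from those of Cish.

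Socs2 had 727 and 1274 counts, 22.7 and 33.9 CPM, a ratio of 1.49 (1.36 to 1.64). Its interval stayed above 1 with counts divided by 3 (1.27 to 1.76), but the ratio did not reach 2 under any scaling. Its share of SOCS counts went from 7.22% (6.73 to 7.75) to 10.4% (9.83 to 10.9). Socs2 thus differed between the libraries by more than counting error and by less than the 2-fold rule. Of its 50-base stretches, 7.23% are shared with Gm9847 and Gm8000, and the part of these genes in its counts was not tested. Before any correction for GC content, the difference between Socs1 and Socs2 was itself larger than counting error. The ratio of their ratios was 1.64 (1.28 to 2.13), while Socs1 against Cish gave 1.23 (0.730 to 2.05). The longest transcripts of Socs1 and Socs2 differ in GC content, at 58.8% and 45.4%. After centring on GC content their ratios stood closer, at 2.04 and 1.67, and no interval was computed for that difference.

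Socs3, which restrains IL-6 family receptors that signal through gp130, had 817 and 994 counts, 25.5 and 26.5 CPM. The ratio of 1.04 (0.944 to 1.14) did not differ from 1 beyond counting error. Socs1 and Socs3, the JAK-blocking pair, therefore parted, with a ratio of their ratios of 2.37 (1.84 to 3.06). Their longest transcripts have nearly the same GC content, 58.8% and 58.7%, so the centring on GC content moves both alike.

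Socs4, Socs5, Socs6 and Socs7, the members with long N-terminal regions, are linked mainly to receptor tyrosine kinase and insulin signaling. Socs5 had 3467 and 4107 counts, 108 and 109 CPM, a ratio of 1.01 (0.965 to 1.06). Socs6 had 967 and 1236 counts and a ratio of 1.09 (1.00 to 1.19), and Socs7 had 1554 and 1966 counts and a ratio of 1.08 (1.01 to 1.15). With counts divided by 3 the intervals of both Socs6 and Socs7 span 1. Of the 50-base stretches of Socs6, 11.7% are shared with Gm9449 and Gm13188. Socs4 had 2403 and 2368 counts, 75.04 and 63.0 CPM, and was the only SOCS gene with a ratio under 1, at 0.840 (0.793 to 0.889). That direction depends on the correction, since the Socs4 ratio was 1.08 after centring on GC content, where Socs3 and Socs7 in turn went to 0.862 and 0.979. The Socs4 share of SOCS counts was 23.9% without the drug and 19.3% with it, so relative to the other SOCS genes it was 0.760 of the control level (0.713 to 0.811). Such shares are free of library scaling but were not corrected for GC content, and the Socs4 transcript has the lowest GC content of the family, at 38.5%.

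**Figure D2:**
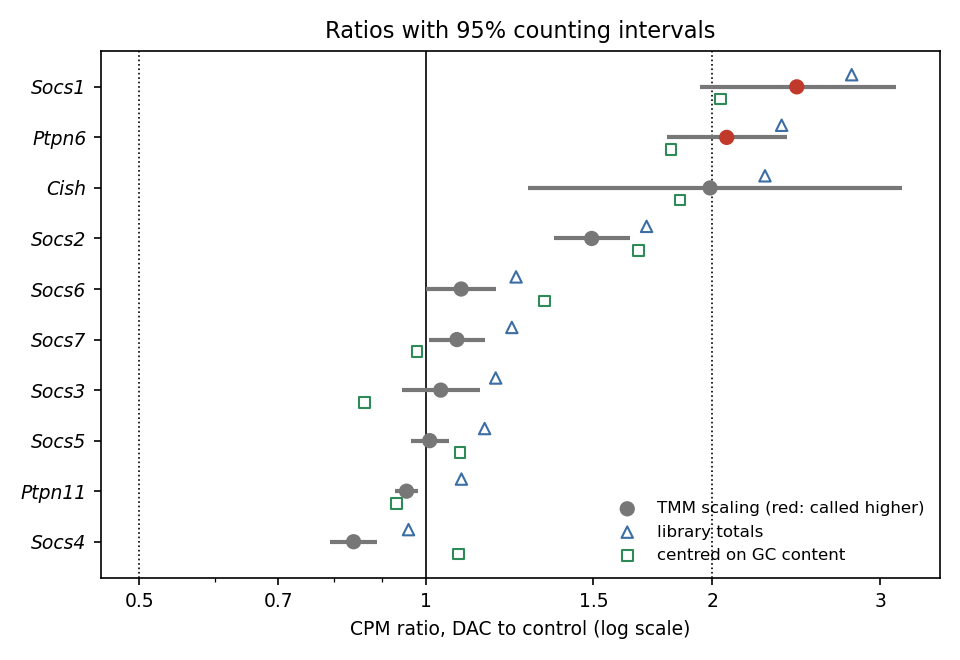
Points on the x axis (log scale) give, for each member, DAC CPM divided by control CPM, drawn with 95% counting intervals after TMM scaling, red where called higher. Triangles give the ratio by library totals and squares the ratio after centring on GC content, the solid line marks 1 and dotted lines 0.5 and 2. Socs1 lies past 2 by all 3 measures, Ptpn6 falls to 1.81 after GC centring, and Cish lies at 1.99 between its other values of 1.85 and 2.27.

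The 8 SOCS genes summed to 10063 counts in the control and 12297 counts in the DAC library, 314 and 327 CPM, a ratio of 1.04 (1.01 to 1.07). After TMM scaling the summed level of the family thus hardly differed, while its makeup shifted toward Socs1, Socs2 and Cish. Scaling by library totals would add 0.19 to the log2 of the family ratio and leave the makeup as it is. Per kilobase of exon, which allows genes to be compared, the control levels ran from Cish at 0.146 CPM per kilobase through Socs1 at 1.05, Socs2 at 2.38, Socs6 at 2.66, Socs7 at 6.68, Socs3 at 8.82 and Socs4 at 10.9 to Socs5 at 16.9. The counting intervals of the neighbors Socs2 and Socs6 overlapped. In the DAC library Socs2, at 3.56, lay above Socs6, at 2.90 CPM per kilobase, and the order was otherwise the same. There the intervals of the neighbors Socs1 (2.58) and Socs6 overlapped, as did those of Socs3 (9.15) and Socs4 (9.16). By exon length the abundant members of the family were thus Socs5, Socs4, Socs3 and Socs7, and the genes with the largest ratios, Socs1 and Cish, were the 2 least abundant in both libraries. Measured by the longest transcript in place of all exons, Socs2 had 5.35 CPM per kilobase in the control, above Socs6 at 5.003, so the order of those 2 is not settled. By that length Socs2 also lay above Socs7 in the DAC library, at 7.99 against 7.46 CPM per kilobase, and Socs3 above Socs4, at 10.4 against 9.16.

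**Figure D3:**
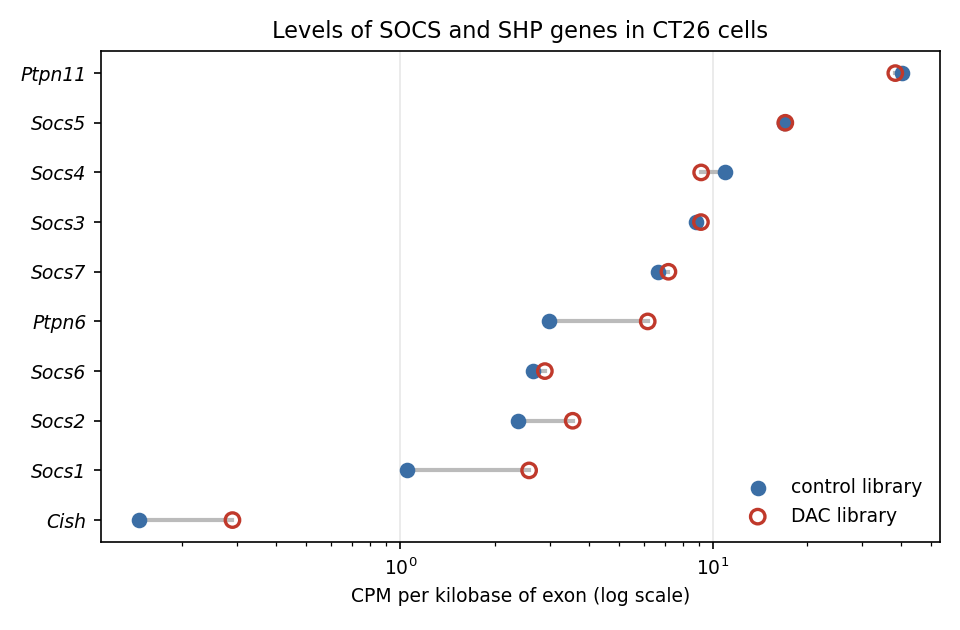
CPM per kilobase of exon (x axis, log scale) of each member in the control library (filled blue) and the DAC library (open red), ordered by the control level. Ptpn11 is highest at 40.1 and 38.3 and Cish lowest at 0.146 and 0.290, and the widest gaps between the libraries are those of Socs1, Ptpn6 and Cish.

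Ptpn6 and Ptpn11 are paralogs, and they differed in both level and ratio. Ptpn6 had 268 counts in the control and 651 counts in the DAC library, 8.37 and 17.3 CPM, a ratio of 2.07 (1.79 to 2.40). Ptpn11 had 9627 and 10782 counts, 301 and 287 CPM, a ratio of 0.954 (0.928 to 0.981). That small deficit of Ptpn11 turned into a ratio of 1.09 by library totals, so its direction depends on the scaling. Relative to Ptpn11, Ptpn6 was 2.17-fold higher in the DAC library (1.87 to 2.52), a value that no scaling of the libraries can move. Per kilobase of exon, Ptpn6 made up 6.93% of the SHP level without the drug and 13.9% after it, so Ptpn11 remained the main SHP gene in both. After centring on GC content the Ptpn6 ratio was 1.81, which is short of the 2-fold rule. Ptpn6 lies on the minus strand of chromosome 6 from 124720707 to 124738714, with 11 annotated transcripts and 11 starts, and 6.73% of its 50-base stretches are shared with Gm20531, an overlapping antisense gene not analysed here, while Ptpn11 shares 0.0676%.

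The promoters of the 2 paralogs differ in their content of CG, the dinucleotide that is methylated in mammalian DNA and that loses methylation when DAC is incorporated. The 250 bases before each start are shown for this contrast, from RefSeq on GRCm38.p6, with every CG in capitals. Ptpn6 is read from chr6:124738710-124738959 and Ptpn11 from chr5:121191398-121191647, both on the minus strand. Ptpn6 has 11 annotated starts, and its window is that of the RefSeq start.
Ptpn6: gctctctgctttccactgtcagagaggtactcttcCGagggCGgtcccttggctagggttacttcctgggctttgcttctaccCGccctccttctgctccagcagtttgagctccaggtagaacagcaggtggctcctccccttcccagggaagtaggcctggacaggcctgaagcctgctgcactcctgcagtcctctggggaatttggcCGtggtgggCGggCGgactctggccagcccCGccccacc
Ptpn11: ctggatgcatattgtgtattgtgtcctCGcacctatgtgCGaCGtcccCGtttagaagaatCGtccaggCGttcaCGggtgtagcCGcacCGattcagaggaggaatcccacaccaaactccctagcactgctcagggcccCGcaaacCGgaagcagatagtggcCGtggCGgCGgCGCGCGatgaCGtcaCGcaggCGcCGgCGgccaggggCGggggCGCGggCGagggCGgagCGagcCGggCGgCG
The upstream bases of Ptpn6 hold 7 CG and those of Ptpn11 hold 31. In the whole 300-base window there were 8 CG in Ptpn6 and 37 in Ptpn11, so that 51.3% and 94.4% of all windows have fewer. Of the other members with a window, Cish had 11 CG, Socs1 18, Socs3 31 and Socs4 34, and no window was given for Socs2, Socs5, Socs6 or Socs7. The 3 members with the largest ratios among these 6 were thus the 3 with the fewest CG in the window. Among 7583 measured genes with a single window, 15.0% of those with under 20 CG and 5.85% of those with at least 20 were called higher. Lower calls were also more frequent among the genes with fewer CG, at 5.80% against 3.29%. Methylation of these promoters was not analysed here, and the windows were compared after the ratios were known.

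**Figure D4:**
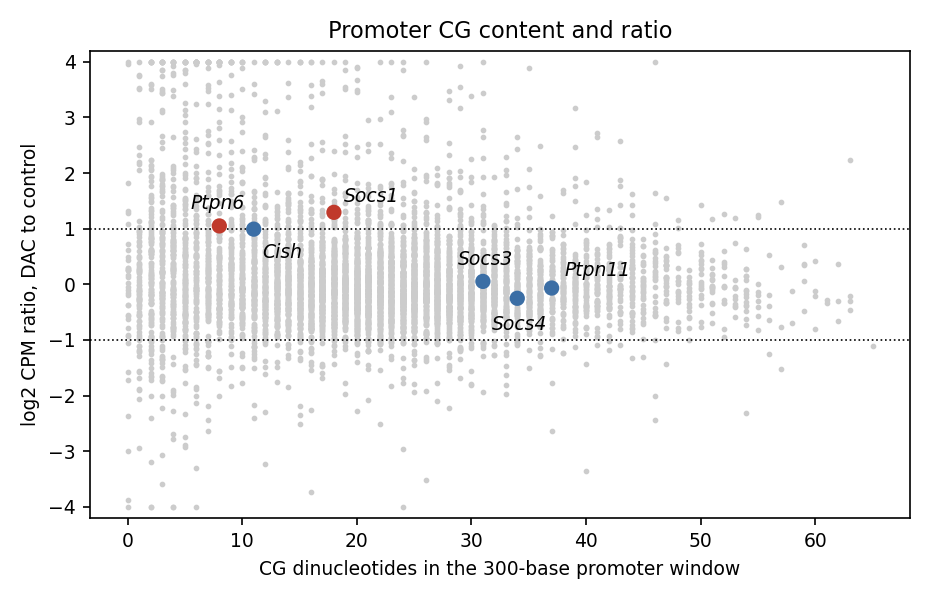
CG dinucleotides in the 300-base promoter window (x axis) against the log2 CPM ratio of DAC to control (y axis, values past 4 in either direction drawn at the edge) for 7583 genes in gray and the 6 members with a window in color, red where called higher. Ptpn6, Cish and Socs1, with 8, 11 and 18 CG, lie near or above the dotted line of a 2-fold difference, and Socs3, Socs4 and Ptpn11, with 31 to 37 CG, lie near 0.

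Since Ptpn6 is abundant in blood cells, 15 blood cell markers were read beside it. Of the 10 analysed here, 3 reached 1 CPM, each in the DAC library only. All 3 were called higher, and since low DAC values would have left them unmeasured, that tally leans on the CPM minimum. These were Spi1, which encodes the myeloid transcription factor PU.1 (0 and 65 counts), Coro1a, an actin regulator of leukocytes (3 and 63 counts), and Cd79a, a part of the B cell receptor (19 and 112 counts). Ptprc, which encodes CD45, the antigen of nearly all leukocytes, had 3 counts with no drug and 0 after DAC, where a count of 0 allows up to 0.0798 CPM. Lyz2, the myeloid lysozyme gene and the marker with the most control counts, went the other way at 31 and 17 counts (ratio 0.467, interval 0.243 to 0.871), under 1 CPM in both libraries. Laptm5 (0 and 24 counts), Vav1 (0 and 18 counts) and Lcp1 (0 and 15 counts) were also under 1 CPM in both, with intervals above 1. The markers summed to 1.84 CPM in the control and 8.52 CPM in the DAC library, and 5 of the 10 were at 0 in the control. The part of these genes in the Ptpn6 result was not tested.

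For the labelled colorectal origin, 10 of 12 epithelial markers were analysed, 4 were measured, and Krt8, Krt19 and Krt20 were called higher in the DAC library. Krt8 and Krt19 reached 1 CPM in the DAC library only, so the tally of higher calls here also leans on the CPM minimum. Krt18, a keratin of simple epithelia, was the most abundant marker in the control at 56.1 CPM, while the E-cadherin gene Cdh1 had 0 and 9 counts. In the control, 4 of the 10 were at 0, and the summed level was 75.4 CPM against 258 CPM with DAC. Most of that difference was Krt8, with 5 and 4445 counts, 0.156 and 118 CPM.

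Some called genes named for the pathway lists that follow reached 1 CPM in 1 library only. These were Il15ra, Osm, Gab1 and Bcl3 in the DAC library and Il6 in the control, so the tallies of their lists lean on the CPM minimum. The calls in each list stand beside 10.8% of all measured genes called higher and 5.29% called lower, with a median log2 ratio of -0.02. Upstream of the SOCS proteins, the receptor genes called higher were Il4ra, Il2rg and Il15ra. Of 26 receptor genes analysed, 17 were measured, 3 were called higher and 0 lower, with a median log2 ratio of 0.27. Il4ra, the IL-4 receptor chain, had 250 and 1108 counts, and was 3.78-fold higher (3.29 to 4.35). Il2rg, the common gamma chain, had 308 and 889 counts and was 2.46-fold higher (2.16 to 2.81). Il15ra, the IL-15 receptor chain, had 0 and 41 counts, 11.6-fold higher with the 0 set to 3 counts (lower limit of the interval 9.05). Il6st, which encodes gp130 and was the most abundant receptor, had 5292 and 6009 counts and a ratio of 0.968 (0.932 to 1.00). The growth hormone receptor gene Ghr had a ratio of 0.794, and the interferon gamma receptor genes Ifngr1 and Ifngr2 had ratios of 1.49 and 1.67.

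Of 18 cytokine genes analysed, 12 were measured, with 2 called higher and 1 lower. Osm, the gp130 cytokine oncostatin M, had 0 and 54 counts, 15.3-fold higher with the 0 set to 3 counts (lower limit of the interval 12.1). Il15 had 53 and 126 counts, a ratio of 2.03 (1.46 to 2.85). Il6 was lower at 56 and 26 counts, a call lost after centring on GC content (ratio 0.510). Csf1, the macrophage growth factor and the most abundant ligand, had a ratio of 0.615. Lif, another gp130 cytokine, had 1924 and 2286 counts and a ratio of 1.01 (0.953 to 1.08).

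Among 10 JAK and STAT genes, 2 were called higher and 0 lower, with a median log2 ratio of 0.16. Stat5a, whose product drives Cish and Socs2, had 123 and 355 counts, a ratio of 2.46 (1.998 to 3.04), while its paralog Stat5b, with 1242 and 1498 counts, had a ratio of 1.03 (0.953 to 1.11). Stat2 had 3381 and 8174 counts, a call that is lost after centring on GC content (ratio 1.97). Stat3, the main inducer of Socs3, had a ratio of 0.904.

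Of 16 STAT-responsive genes other than SOCS, 3 were called higher and 0 lower, with a median log2 ratio of -0.12. The 3 were Irf1, an interferon-induced transcription factor (676 and 2004 counts, ratio 2.53, interval 2.31 to 2.76), Irf8 (54 and 298 counts, ratio 4.70, interval 3.51 to 6.41) and the NF-κB coregulator gene Bcl3 (23 and 205 counts, ratio 7.60, interval 4.92 to 12.3). Ccnd1, the most abundant of the list, had a ratio of 0.934. Pim1, a kinase gene that STAT5 induces, had a ratio of 0.661. Of the other Pim genes, Pim2 had a ratio of 1.28 (1.09 to 1.52) and Pim3 one of 0.862. The STAT-responsive genes thus did not share one direction, and the part of STAT5 in these ratios was not tested.

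**Figure D5:**
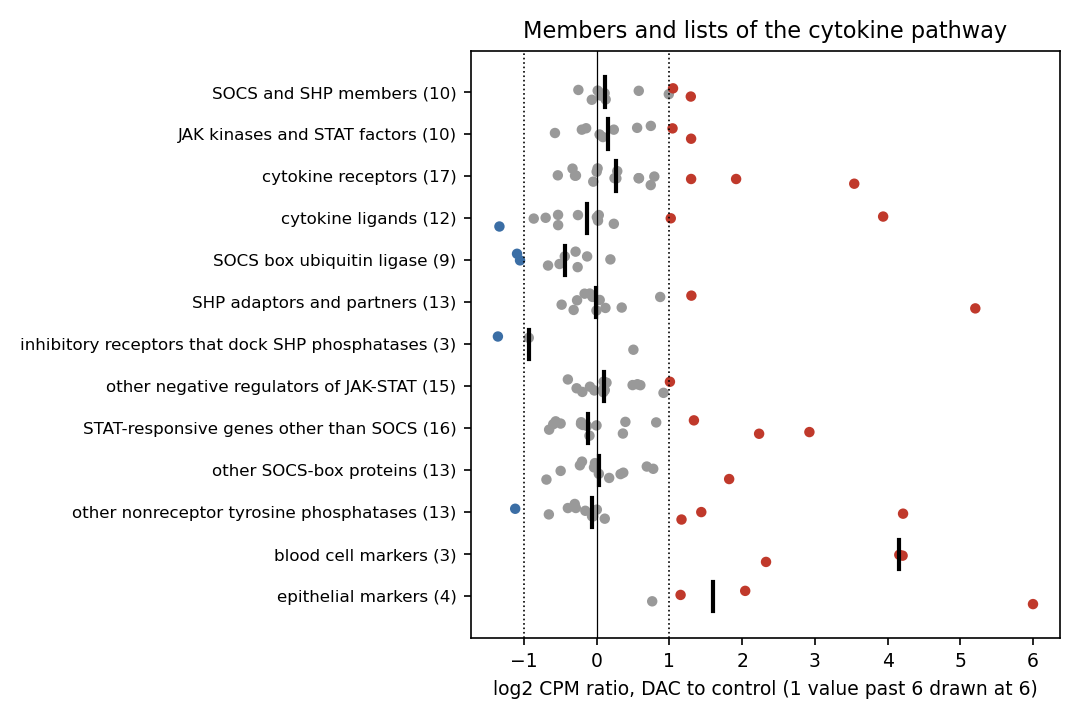
Each point is 1 measured gene of the members or of 12 lists (gene numbers in parentheses), placed on the x axis by the log2 of DAC over control CPM, and black bars mark medians. Red points are genes called higher, blue points genes called lower, and dotted lines mark 2-fold differences. The Krt8 point, with a log2 ratio of 9.57, is drawn short of its value at the right end. The SOCS box ligase genes lie mostly left of 0, with a median of -0.44, against 0.12 for the members.

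The ubiquitin ligase that SOCS proteins recruit was encoded by genes of which 8 of 9 had a ratio under 1 and Nedd8 had 1.14. Of the 9 genes, 0 were called higher and 2 lower, with a median log2 ratio of -0.44. Cul5, the cullin of SOCS ligases, had 3821 and 2159 counts, 2.08-fold lower, and Cul2, the cullin of the related VHL ligase, had 4099 and 2251 counts, 2.14-fold lower. Both calls end by library totals, at ratios of 0.550 and 0.534, and after centring on GC content, at 0.620 and 0.572. Elob, which encodes elongin B and was the most abundant, had a ratio of 0.834, and Eloc, for elongin C, 0.702. Of 13 measured genes for other SOCS-box proteins, 1 was called higher, Spsb1, a substrate receptor of that ligase (223 and 925 counts, ratio 3.53, interval 3.05 to 4.11), and Wsb1, the most abundant, had a ratio of 0.709.

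Among the adaptors and partners of the SHP phosphatases, 2 of 13 measured genes were called higher and 0 lower, with a median log2 ratio of -0.003. Gab1, a docking protein of SHP-2, had 0 and 130 counts, 36.9-fold higher with the 0 set to 3 counts (lower limit of the interval 29.6). Its paralog Gab2 had 1034 and 1081 counts and a ratio of 0.891. Csk, the kinase that restrains SRC, had 978 and 2830 counts, a ratio of 2.47 (2.29 to 2.65), which falls to 1.86 after centring on GC content. Shc1, the most abundant adaptor, had a ratio of 0.803. Of 9 inhibitory receptor genes analysed, 3 were measured, and Ceacam1, a receptor that docks SHP-1, was called lower at 507 and 232 counts, 2.56-fold lower, while Tigit, the most abundant, had a ratio of 0.523.

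Among 13 other nonreceptor tyrosine phosphatases, 3 were called higher and 1 lower, with a median log2 ratio of -0.06. Ptpn7, a phosphatase known from blood cells like Ptpn6, had 97 and 2111 counts, a ratio of 18.5 (15.1 to 23.0). Ptpn5, known from brain, had 50 and 159 counts (ratio 2.71), and Ptpn3 had 497 and 1309 counts (ratio 2.24). Ptpn22, a lymphoid phosphatase, had 2717 and 1466 counts, 2.17-fold lower, a call that ends by library totals (0.525) and after centring on GC content (0.515). Ptpn14, the most abundant, had a ratio of 0.967, and Ptpn1 and Ptpn2, which act on JAKs, had ratios of 1.08 and 0.760.

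Of 15 other measured regulators that restrain JAK-STAT signaling, 1 was called higher and 0 lower, with a median log2 ratio of 0.10. Pdlim2, which promotes the loss of STAT proteins, had 385 and 908 counts, and was 2.01-fold higher (1.78 to 2.27), or 1.67-fold after centring on GC content. Usp18, an inhibitor at the interferon receptor and the most abundant of the list, had 4559 and 8110 counts and a ratio of 1.52 (1.46 to 1.57). Pias3, an inhibitor of STAT3, had a ratio of 1.89 (1.70 to 2.10).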

How the data were processed

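1 library of DAC-treated and 1 of control CT26 cells were analysed. The authors deposited whole-number counts per Ensembl gene, without normalization. Trim Galore and FastQC appear in the submitters' processing notes, which also list mm10, DESeq, Cufflinks, StringTie 1.3.1c and STAR 2.5.3a. The study's methods instead name TopHat, Bowtie and CASAVA, the last for FPKM values. These sources differ, and neither names the program that made the counts. Symbols, exons and coordinates came from GENCODE M21 (GRCm38, the assembly behind mm10), which matched 24122 identifiers and missed 101. Scaling over all 24223 genes used edgeR 4.0.16 (TMM factors 1.07 for DAC and 0.936 for control), with 1 CPM equal to 37.6 and 32.0 counts. Ratios, intervals and figures used Python 3.11.15, numpy 2.4.6, scipy 1.17.1, pandas 2.3.3 and matplotlib 3.10.9. The step that gives ratios, intervals and calls was tested on simulated counts with counting error only, scaled by library totals. The TMM factors, the centring on GC content, the shares and the promoter counts were not tested in that way. A count of 0 was set to 3 counts in ratios. Centring on GC content subtracted the median log2 ratio of 20 bins of transcript GC content. Promoter windows came from RefSeq on GRCm38.p6. The members and lists were chosen with earlier results of these data known. Named genes are the members, up to 4 called genes and the gene of each list with the highest mean CPM (called the most abundant, and for 1 list not reported here), and the neighbors of members. Ghr, Ifngr1, Ifngr2, Lif, Stat5b, Stat3, Pim1, Eloc, Nedd8, Gab2, Ptpn1, Ptpn2, Pias3, Ptprc and Cdh1 were named for their roles after their values were seen. Lyz2, Laptm5, Vav1 and Lcp1 were named for their counts, also after these were seen. Pim2 and Pim3 were named beside Pim1 after their values were seen. No p-value is given.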

Additional observations from a re-analysis of the deposited data

How the results depend on the processing

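Socs1 and Ptpn6 were called higher in the DAC library with DESeq2 (1.42.0) size factors, upper-quartile factors, library totals, no CPM minimum or one of 5, a fold of 1.5, thinning of the deeper library, intervals from counts divided by 3 and a prior count of 2. Centring on GC content left 1 member called, Socs1, and a fold of 4 left 0. Cish joined the called genes, making 3, by library totals, DESeq2 or upper-quartile factors, a fold of 1.5 and thinning. No alternative called a member lower. The median log2 ratio of the members was 0.31 by library totals, which add 0.19 to every log2 ratio and put all measured genes at 0.18, and 0.27 after centring on GC content, where all measured genes stood at 0.0002. By library totals 13.9% of genes were called higher and 3.37% lower, so the share of higher genes among those called went from 67.2% to 80.5%. Over all genes, 1468 were called higher and 716 lower, against 579 and 112 at a fold of 4, 2612 and 2059 at a fold of 1.5, 2672 and 1239 with no CPM minimum, 684 and 450 with one of 5, and 1889 and 458 by library totals. Among members that were not called, Socs4 turned above 1 and Socs3 and Socs7 below 1 after centring on GC content, and Ptpn11 above 1 by library totals. Depth limits Cish most, at 30 and 70 counts. No paired analysis was possible because each group has 1 library.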

Other observations

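The nearest genes on each side of Socs1, Ptpn6 and Cish, the members with the largest ratios, went in different directions. Not all of these neighbors were measured. Clec16a, 37362 bases from Socs1, had 1251 and 1484 counts in control and DAC and a ratio of 1.01 (0.937 to 1.09), and Tnp2, a sperm protein gene 2400 bases away on the other side, had 0 and 1. Grcc10, 469 bases from Ptpn6, had 686 and 601 counts and a ratio of 0.747 (0.668 to 0.834), opposite in direction to Ptpn6. On the other side of Ptpn6, Gm15884 had 15 and 22 counts, under the CPM minimum in both libraries. Near Cish, the kinase gene Mapkapk3, 6149 bases away, had 0 and 48 counts. It was 13.6-fold higher with the 0 set to 3 counts (lower limit of the interval 10.7), while Hemk1 on the other side had a ratio of 0.729. Gpr179, 10474 bases from Socs7, was also called higher at 31 and 107 counts (ratio 2.94, 1.96 to 4.54), beside a Socs7 ratio of 1.08. Mapkapk3 and Gpr179 each reached 1 CPM in the DAC library only, so these calls lean on the CPM minimum. They stand beside 10.8% of all measured genes called higher.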
